A study of Mus musculus with 30 samples.

Results

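The 3 mouse Period genes, Per1, Per2 and Per3, were followed through whole eye and hypothalamic block of wild-type (WT) mice and of mice homozygous for a disrupted Per3 gene (Per3-/-, the knockout). Their members on the array were all probes that carry the name of 1 of these genes in the hypothalamus array files, and the eye arrays were joined by probe name. This gave 4 probes of 41174 that are not controls (3 of 28146 gene or transcript names): 1 for Per1, 2 for Per2 and 1 for Per3. The data are 30 Agilent arrays of 60-mer probes with 1 label, 1 array per mouse and tissue. They hold whole eye of 7 WT and 7 knockout mice and hypothalamic block of 8 WT and 8 knockout mice. All mice were adult males on a C57Bl/6J background and the knockouts were compared with WT litter mates. Both genotypes had been through 17 cycles of 3.5 h light and 3.5 h dark and were killed in the light part of the last cycle. The paper places this single time in the middle of the earlier active phase. Every level below is therefore a level under that schedule and at that time. Eye and hypothalamus of the same genotype and replicate number were taken to be from the same mouse, which the sample labels do not state. Eyes of WT mouse 2 and knockout mouse 1 were not analysed here, which left 7 WT and 7 knockout mice with both tissues. All comparisons within a mouse rest on this matching. The knockout allele carries a neomycin cassette in place of an early exon with stop codons in every frame, and it still gives a longer Per3 mRNA. The paper also cites earlier work in which that mRNA was lower in the suprachiasmatic nucleus and skeletal muscle. The allele is thus a loss of protein and not a full loss of transcript. The hypothalamic block was cut around the optic chiasm and contains the suprachiasmatic nucleus, the central clock, with much other tissue. In bulk tissue of this kind, fewer cells of a type and less RNA per cell cannot be told apart.

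Period genes encode the repressor arm of the circadian clock. CLOCK and BMAL1 bind E-box elements and switch the Period and Cryptochrome genes on, and the PER and CRY proteins return to the nucleus and block their own activators. PER1 and PER2 are needed for the rhythm of the central clock, and their genes are also switched on by light through CREB and by glucocorticoids. PER3 is not needed for the central rhythm and its gene is known as a strongly cycling output in many tissues.

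The probe sequences are shown first because each value below is the brightness of 1 of these sequences, and because the 2 Per2 probes gave different answers. The first 30 bases of each 60-mer are printed in lower case, 5′ to 3′ as on the array.
Per1, A_52_P79889: gcttacagcagtctaatgagaggcttcctt
Per2, A_51_P282760: acctttcacagtgatcaggtagtagccatg
Per2, A_52_P536869: acaccacgagaatgagattcgctaccagcc
Per3, A_51_P258493: ggctctttccttaagatctgtcagctagcc
On mouse assembly mm9 the Per1 probe lies at chr11:68922878-68922937 on the plus strand. The Per2 probes lie on the minus strand at chr1:93313046-93313105 (A_51_P282760) and chr1:93336538-93336597 (A_52_P536869), with 23492 bases between their starts. The first is nearer the 3′ end of the transcript and is called the 3′ Per2 probe here, and the other the internal Per2 probe. The Per3 probe lies at chr4:150379256-150379315 on the minus strand. The Per1 probe and the internal Per2 probe each have 1 reading frame without a stop codon, while the 3′ Per2 probe and the Per3 probe have a stop codon in every frame. No mm9 annotation was used here, so exons are not named. Where the Per3 probe lies relative to the replaced exon is not given in the sources used here. The Per3 signal therefore does not check the genotype labels, and how much of it in knockout mice is mRNA of the disrupted allele was not tested.

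The promoters are printed because Per1 and Per3 hold different clock and light elements. They are the 250 bases before the transcript start in RefSeq's windows on GRCm38.p6, with matches to 5 motifs in capitals. The motifs, searched on both strands, were the E-box CACGTG, its variant CACGTT, the cAMP response element (CRE) TGACGTCA, the CRE core TGACG, which is also part of the full CRE, and the D-box TTATGTAA or TTATGCAA. The windows matched Per1 with 2 starts and Per3 with 1, and Per2 was not among them.
Per3, chr4:151044666-151044915, minus strand: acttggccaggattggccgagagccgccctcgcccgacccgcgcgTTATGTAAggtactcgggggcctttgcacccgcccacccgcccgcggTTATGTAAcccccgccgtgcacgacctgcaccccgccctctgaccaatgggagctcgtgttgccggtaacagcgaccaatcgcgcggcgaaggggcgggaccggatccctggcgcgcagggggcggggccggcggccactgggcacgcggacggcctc
Per1 first start, chr11:69098699-69098948, plus strand: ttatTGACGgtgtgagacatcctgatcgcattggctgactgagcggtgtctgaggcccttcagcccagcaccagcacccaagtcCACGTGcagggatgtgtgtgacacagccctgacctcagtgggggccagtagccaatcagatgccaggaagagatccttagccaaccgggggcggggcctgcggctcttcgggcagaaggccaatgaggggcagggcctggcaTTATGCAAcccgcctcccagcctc
Per1 second start, chr11:69099902-69100151, plus strand: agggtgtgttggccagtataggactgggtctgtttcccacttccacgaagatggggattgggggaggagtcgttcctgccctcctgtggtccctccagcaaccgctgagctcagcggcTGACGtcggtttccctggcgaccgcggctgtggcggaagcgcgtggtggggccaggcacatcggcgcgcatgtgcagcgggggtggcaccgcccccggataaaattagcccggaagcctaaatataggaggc
Per3 held TTATGTAA at 205 and at 158 bases before the start, and none of the other 4 motifs. The first Per1 start had an E-box 166 bases, a D-box (TTATGCAA) 24 bases and a CRE core 246 bases before it. The second Per1 start had a CRE core 132 bases before it. Over all 32851 RefSeq windows, which run 250 bases before to 50 after a start, the D-box was in 1.66%, the E-box in 7.15%, its variant in 4.68%, the full CRE in 1.79% and the CRE core in 20.8%. These are matches of letters and say nothing of binding in these tissues.

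Values are log2 signals relative to the 75th percentile of the array, so 0 is that percentile and 1 unit is a doubling. Signals of different probes are not on 1 scale, so levels are ordered only within a probe. The scanner software marked all 4 probes as well above background on all 30 arrays, and none as saturated. On each array between 68.0% and 80.8% of all probes were well above background, and the 75th percentile of intensity lay between 1131 and 2207. Retina markers fitted the labels: 8 of 8 were well above background on every eye array, and 0 of 8 were so on every hypothalamic array. Of the suprachiasmatic nucleus markers, 8 of 8 measured (9 listed) were well above background on every hypothalamic array. On every eye array 6 of the 8 were so too, so this list does not single out the hypothalamus. Its summed level averaged 5.12 log2 in WT hypothalamus and 3.98 in WT eye. The summed level of 4 anterior pituitary markers reached 5.35 log2 in 1 WT and 9.62 in 1 knockout hypothalamus, from lows of -0.45 and -0.67, and its part in the results was not tested. The arrays of a tissue lay on 4 slides with both genotypes on each, and the 2 tissues were never on the same slide, so tissue and slide cannot be told apart.

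**Figure D1:**
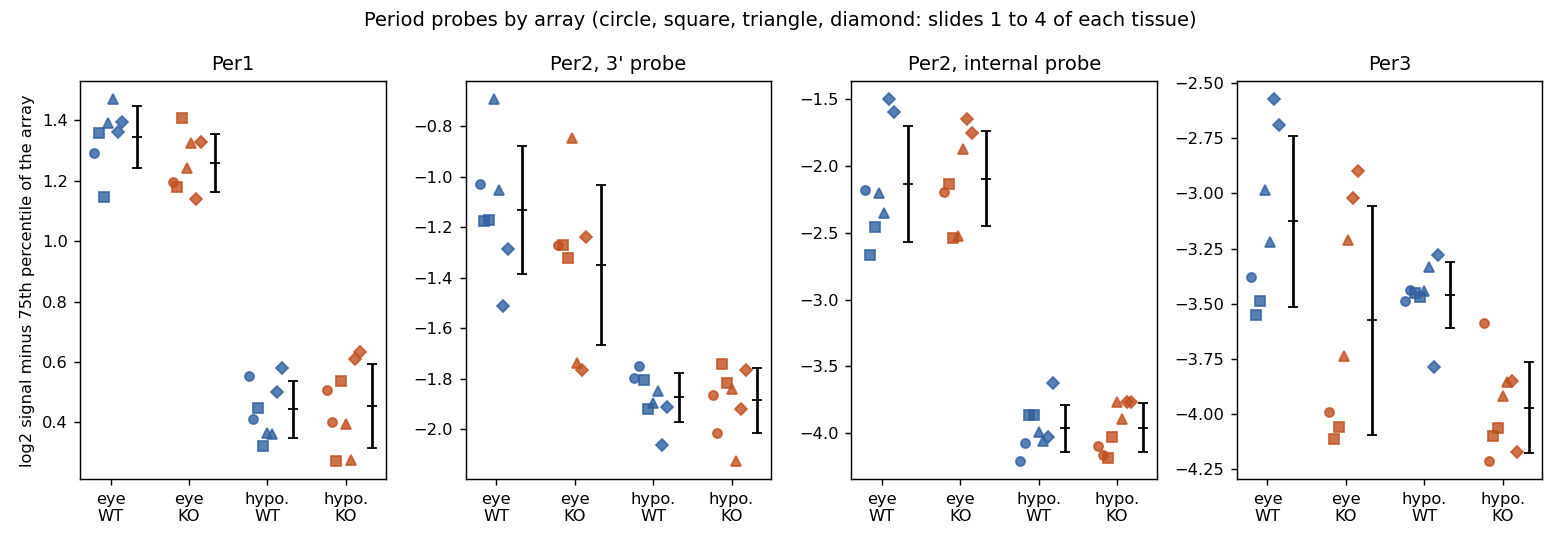
Log2 signal of each Period probe relative to the array's 75th percentile (vertical axis), 1 point an array, in 4 groups; the marker shape gives the slide and the bars the mean and SD. Per1 and the internal Per2 probe do not overlap between the tissues, and Per3 averages lower in knockout than in WT mice within each tissue.

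The Per3 signal averaged lower in knockout mice in both tissues, without passing the test over all probes in either. In the hypothalamus its log2 signal ran from -3.79 to -3.28 (median -3.45) in the 8 WT mice and from -4.21 to -3.59 (median -3.99) in the 8 knockout mice. The groups overlapped by single mice, and 7 of the 8 knockouts were lower than any WT mouse. Over all probes, 0.0947% had all or all but 1 of the knockout mice below every WT mouse. The knockout mean was -0.51 log2 from the WT mean (standard error 0.09, 95% interval -0.70 to -0.32), which is 70.2% of the WT level. Its adjusted p from limma was 0.067, above the threshold of 0.05, and 0 of the 4 Period probes passed it in the hypothalamus, where 0.0413% of all probes did. The two-sided exact permutation test of this probe gave p = 0.00031. The call turns on the setting. With quantile normalization the limma adjusted p was 0.012, with the array median as the scaling point 0.016, and with only probes well above background 0.029. Slide as a block gave 0.22, normexp background correction 0.27 and replicate number as a block 0.95. The limma adjusted p was 0.011 without knockout mouse 1 and 0.025 without WT mouse 7, the mice nearest the other genotype. Without any other mouse it lay between 0.108 and 0.206.

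In the eye the Per3 signal ran from -3.55 to -2.57 (median -3.22) in the 7 WT mice and from -4.12 to -2.90 (median -3.74) in the 7 knockout mice. The groups overlapped widely here, and 4 of the 7 knockouts were lower than any WT mouse. The difference of the means was -0.45 log2 (standard error 0.23, 95% interval -0.95 to 0.05), or 73.3% of the WT level. It did not pass limma (adjusted p = 1), and 0 of the 4 Period probes did in the eye, where 0.0194% of all probes did. Over all arrays the two-sided exact permutation test gave p = 0.092.

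Per3 varied widely between the slides of the eye. The mean over both genotypes ran from -3.80 on slide 2 to -2.80 on slide 4, a range of 1.01 log2, against 0.14 between the slides of the hypothalamus. The share of all probes well above background averaged 73.4% on slide 2 and 78.6% on slide 4 of the eye, and its part in the Per3 values was not tested. Within every slide the knockouts averaged lower, with a difference of -0.61 log2 on slide 1 (1 mouse of each genotype), -0.57 on slide 2, -0.37 on slide 3 and -0.33 on slide 4 (2 of each). Such a pattern on all 4 slides was found in 5.71% of all probes of the eye. With slide as a block the difference stayed at -0.45, as it must with equal numbers of both genotypes on each slide. The standard error fell from 0.23 to 0.09 and the 95% interval narrowed to -0.64 to -0.25 (limma, adjusted p = 0.70). With labels permuted within slides the exact p was 0.0093, of 432 arrangements. In the hypothalamus the 4 slides gave -0.44, -0.62, -0.50 and -0.48 log2, a pattern shared by 7.73% of all probes there, and the exact p within slides was 0.0015, the smallest that 1296 arrangements allow.

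**Figure D2:**
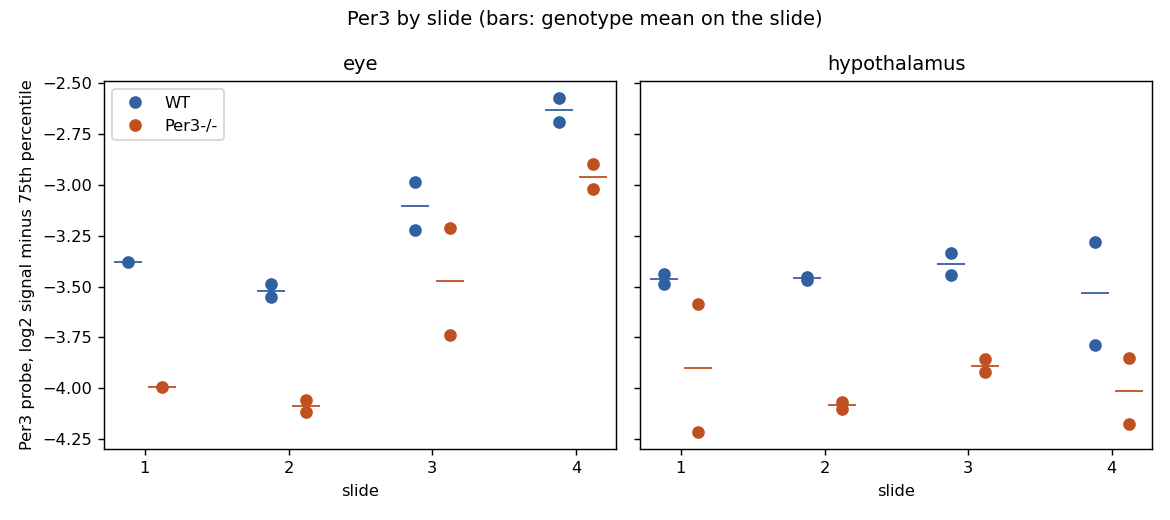
Log2 signal of the Per3 probe (vertical axis) by slide (horizontal axis) in eye and hypothalamus, 1 point an array, with a bar at each genotype's mean on the slide. In the eye both genotypes rise together from slide 2 to slide 4, and the knockout mean is below the WT mean on all 4 slides of each tissue.

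Background correction changed the size of the Per3 difference in the eye. With normexp it was -0.12 log2 (95% interval -0.71 to 0.48), where the median of all probes had itself moved to 0.18, and so -0.29 relative to that median. Per1 and the 3′ Per2 probe stood as low relative to it, at -0.33 and -0.30, and the internal Per2 probe at -0.03. The relative value in the eye is thus not particular to Per3. With normexp and slide as a block, a fit added after the data were seen, the Per3 difference in the eye was again -0.12 (limma, adjusted p = 0.80). The even layout of the slides fixes that value too. In the hypothalamus normexp gave -0.40 for Per3 (limma, adjusted p = 0.27), or -0.32 relative to the median of all probes. The other Period probes there stood between -0.001 and 0.08 relative to it. The Per3 spots were dim, with processed intensities of 69.0 to 216 in the eye and 97.3 to 171 in the hypothalamus. The summed level of the cornea and conjunctiva markers in the eye was 8.83 to 9.27 in WT and 8.69 to 9.001 in knockout mice (exact permutation p = 0.042), and that of the retinal ganglion cell markers in the hypothalamus 6.79 to 7.14 and 6.82 to 7.01 (exact permutation p = 0.038), of 24 list and tissue pairs compared. Their part in the Per3 difference was not tested.

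Whether Per1 and Per2 rise where Per3 is disrupted was asked of the same arrays. These arrays hold a single circadian time, so a change of level cannot be told apart from a change of phase. The intervals below bound a difference at that time only. Per1, a gene that light induces in the central clock, lay between 0.32 and 0.58 log2 (median 0.43) in WT and between 0.27 and 0.63 (median 0.46) in knockout hypothalamus. The genotypes overlapped fully. The difference was 0.01 log2 (95% interval -0.12 to 0.14; limma, adjusted p = 0.99), so the interval runs from 92.1% to 110% of the WT level. In the eye Per1 ran from 1.15 to 1.47 (median 1.36) in WT and from 1.14 to 1.41 (median 1.24) in knockout mice. The difference was -0.09 (95% interval -0.22 to 0.05; limma, adjusted p = 1), or 85.7% to 104% of WT, and the exact permutation p was 0.13.

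Per2, whose protein is needed for a stable central rhythm, did not pass the test in the hypothalamus with either probe. The 3′ Per2 probe lay between -2.06 and -1.75 (median -1.87) in WT and between -2.13 and -1.74 (median -1.85) in knockout mice, a difference of -0.01 (95% interval -0.14 to 0.11; limma, adjusted p = 0.99). The internal Per2 probe lay between -4.21 and -3.63 (median -4.01) in WT and between -4.19 and -3.76 (median -3.96) in knockout mice, a difference of 0.005 (95% interval -0.18 to 0.19; limma, adjusted p = 1.0). The intervals correspond to 90.9% to 108% and 88.1% to 114% of the WT level.

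In the eye the Per2 intervals were wider. The 3′ Per2 probe ran from -1.51 to -0.69 (median -1.17) in WT and from -1.76 to -0.85 (median -1.27) in knockout mice, a difference of -0.22 (95% interval -0.54 to 0.10; limma, adjusted p = 1; exact permutation p = 0.18). Knockouts averaged lower on all 4 slides, with differences from -0.42 to -0.10 log2. The internal Per2 probe ran from -2.67 to -1.50 (median -2.20) in WT and from -2.54 to -1.65 (median -2.13) in knockout mice, a difference of 0.04 (95% interval -0.39 to 0.48; limma, adjusted p = 1). The levels allowed by these intervals are 68.9% to 107% and 76.1% to 139% of WT, so the eye data do not bound a change of Per2 as closely. At an unadjusted p under 0.05, Per3 in the hypothalamus was the only 1 of the 8 probe and tissue pairs without a slide term, against 1.8% of all probes in the eye and 2.82% in the hypothalamus. With slide as a block each of the 8 differences kept its value, which equal numbers of both genotypes on every slide fix in advance.

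**Figure D3:**
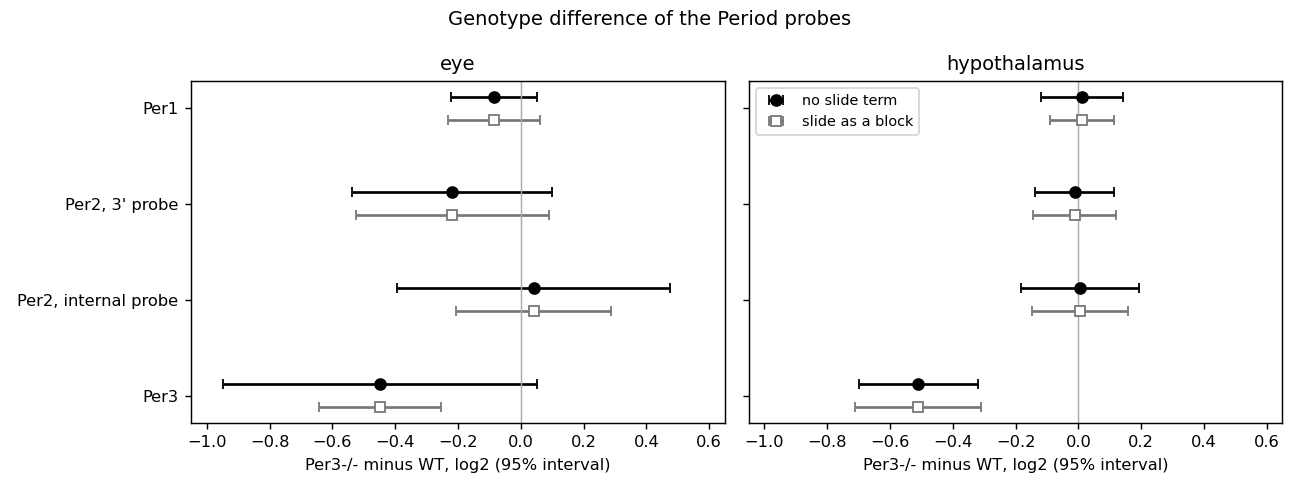
Per3-/- minus WT in log2 (horizontal axis) with 95% intervals for the 4 Period probes in eye and hypothalamus, without (filled) and with (open) slide as a block. Only the Per3 intervals lie wholly below 0, in the hypothalamus with both fits and in the eye with slide as a block.

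The genotype difference was then compared between the tissues. The difference in the eye minus that in the hypothalamus was 0.06 log2 for Per3 (95% interval -0.42 to 0.55), -0.10 for Per1 (-0.27 to 0.08), -0.21 for the 3′ Per2 probe (-0.51 to 0.10) and 0.04 for the internal Per2 probe (-0.39 to 0.46). None of the 4 passed limma (adjusted p = 1 for each), where 0.00486% of all probes did. The Per3 interval is wide beside the Per3 difference itself, so these data bound a tissue difference only loosely.

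Between the tissues, Per1 and Per2 were higher in whole eye than in the hypothalamic block. Per1 was higher by 0.90 log2 in WT (95% interval 0.78 to 1.02) and 0.81 in knockout mice (0.68 to 0.93), which is 1.87-fold and 1.75-fold. Every eye array of a genotype was above every hypothalamic array of it, and each of the 7 mice of each genotype with both tissues was higher in the eye (exact sign-flip p = 0.016, the smallest that 7 mice allow). Over all probes 42.1% passed limma as higher in the eye in WT and 44.4% in knockout mice, and 35.8% and 35.2% were higher in the eye in every mouse. A higher signal in the eye is therefore common on these arrays. The median of all probes was itself 0.16 log2 higher in the eye in WT and 0.23 in knockout mice, and relative to it Per1 stood 0.75 and 0.58 higher. With normexp Per1 stood 0.67 higher than the median of all probes in WT but only 0.06 in knockout mice.

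The 2 Per2 probes pointed the same way but differed in size. The 3′ Per2 probe was higher in the eye by 0.74 log2 in WT (95% interval 0.53 to 0.96) and 0.54 in knockout mice (0.32 to 0.75). The internal Per2 probe was higher by 1.83 (1.52 to 2.13) and 1.86 (1.56 to 2.17), or 3.55-fold and 3.64-fold. Within each mouse the eye excess of the internal probe passed that of the 3′ probe, on average by 1.05 log2 in WT (SD 0.53, range 0.56 to 1.98) and 1.31 in knockout mice (SD 0.56, range 0.25 to 1.96), in 7 of 7 mice of each genotype (exact sign-flip p = 0.016). A single Per2 fold between these tissues cannot be given from these probes. With the array median as the scaling point, the 3′ probe in knockout mice no longer passed limma (0.12 log2, adjusted p = 0.40), but the median of all probes moved by as much, and relative to it the probe stood 0.31 higher under both scalings. With normexp it stood 0.06 higher than the median of all probes in knockout mice and 0.61 in WT. The internal Per2 probe then stood 1.02 higher in knockout mice and 1.25 in WT.

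Per3 showed no settled tissue difference. It was higher in the eye by 0.33 log2 in WT (95% interval -0.01 to 0.68; limma, adjusted p = 0.072) and by 0.40 in knockout mice (0.06 to 0.74; limma, adjusted p = 0.032). In 5 of 7 WT and 6 of 7 knockout mice the eye was higher, with single mice from -0.10 to 1.21 and from -0.02 to 1.28. The mice on slide 4 of the eye had the high values: 1.21 and 0.59 in WT, 0.83 and 1.28 in knockout mice. The call in knockout mice was lost without knockout mouse 6, 7 or 8 (0.35, 0.32 and 0.26 log2; limma, adjusted p = 0.080, 0.096 and 0.17), and WT mice passed without WT mouse 3 (0.41 log2; limma, adjusted p = 0.044). Relative to the median of all probes Per3 stood 0.18 (WT) and 0.17 (knockout) higher, and the same with the array median as the scaling point, which shifts all probes alike and by itself put the differences at -0.09 and -0.02. Under quantile normalization the differences were -0.12 and -0.11, or -0.05 relative to all probes in each genotype. With normexp the relative values were 0.12 in WT and -0.05 in knockout mice.

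The order of the 4 group means was thus the same for Per1 and both Per2 probes as regards tissue, with both eye groups above both hypothalamic groups and the genotypes within a tissue not differing beyond their spread. For Per3 the means were -3.13 ± 0.39 (SD, n = 7) in WT eye, -3.46 ± 0.15 (SD, n = 8) in WT hypothalamus, -3.58 ± 0.52 (SD, n = 7) in knockout eye and -3.97 ± 0.21 (SD, n = 8) in knockout hypothalamus. Each neighbour in this order lay within 1 SD of the eye group beside it.

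**Figure D4:**
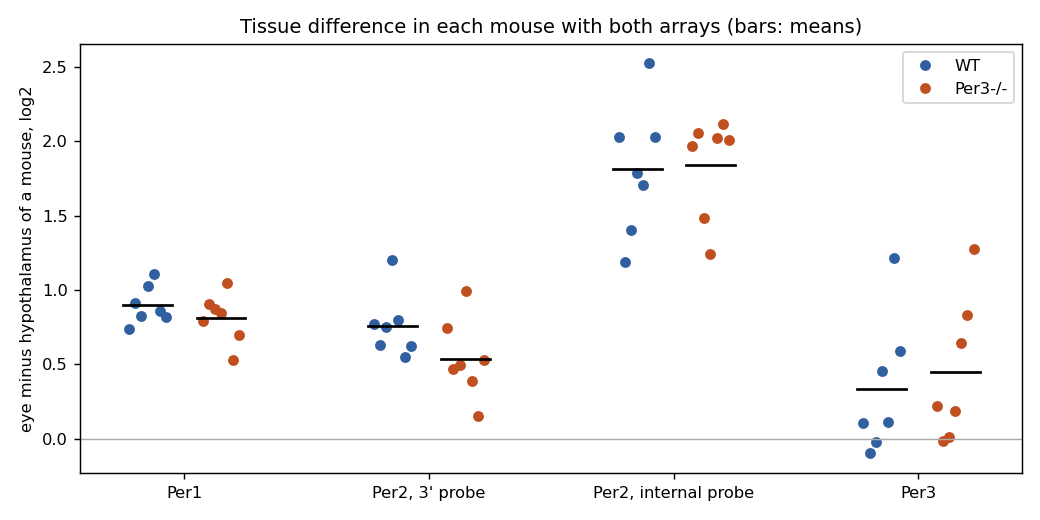
Eye minus hypothalamus in log2 (vertical axis) for each mouse with both arrays, by probe and genotype, with bars at the means. Per1 and both Per2 probes are above 0 in all 7 mice of each genotype, whereas Per3 runs from -0.10 to 1.28.

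Whether the 3 genes varied together was asked by correlating them across mice within each group, with the Per2 probe of higher mean (the 3′ probe). Of 18 relations, 12 between genes and 6 between the tissues of a mouse, 0 had an adjusted p under 0.05 and 0 an unadjusted exact permutation p under 0.05, by Pearson's r or Spearman's ρ. Pearson's r ran from -0.47 to 0.58 with a median of 0.10. With groups of 7 or 8 mice a weak relation was not detectable. The lowest was that of Per2 and Per3 in knockout eye (r = -0.47, exact permutation p = 0.28; ρ = -0.11, exact permutation p = 0.84; adjusted p = 0.97 and 0.98), which became 0.14 without the 2 mice of most extreme Per2 and -0.72 with slide means taken out. The highest was that of the same genes in WT hypothalamus (r = 0.58, exact permutation p = 0.15; ρ = 0.24, exact permutation p = 0.58; adjusted p = 0.97 and 0.98), which became -0.37 without the 2 mice of most extreme Per2 and 0.82 with slide means taken out. Neither relation kept its sign without these 2 mice, which left 5 (eye) or 6 (hypothalamus) mice with a narrower range of Per2. Taking slide means out leaves only the differences between the 2 mice of a genotype on a slide. No exact p within slides could then be under 0.25 in the eye (3 slides) or 0.125 in the hypothalamus (4 slides).

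Between the tissues of a mouse, Per2 gave the highest value in WT (r = 0.56, exact permutation p = 0.17; ρ = 0.57, exact permutation p = 0.20; adjusted p = 0.97 and 0.98), with 0.65 without the 2 extreme mice and 0.19 with slide means taken out. Per3 gave the lowest in WT (r = -0.28, exact permutation p = 0.59; ρ = 0.07, exact permutation p = 0.91; adjusted p = 0.97 and 0.98), with 0.37 and -0.62 under the same changes. With slide means taken out, Per1 gave 0.85 in WT and 0.61 in knockout mice, and in knockout mice Per2 gave 0.98 and Per3 -0.02. These values rest on 6 mice on 3 slides, where no exact p within slides could be under 0.25. No relation between the eye and the hypothalamus of a mouse was detectable with 7 mice a genotype.

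The relations were computed again with the internal Per2 probe, an alternative chosen after the data were seen. The internal Per2 probe correlated with Per3 in WT eye (r = 0.94, exact permutation p = 0.0030; ρ = 0.89, exact permutation p = 0.012; adjusted over 18 relations p = 0.054 and 0.22) and in knockout eye (r = 0.82, exact permutation p = 0.040; ρ = 0.71, exact permutation p = 0.088; adjusted p = 0.36 and 0.69). Without the 2 mice of most extreme Per2 these were 0.71 and 0.71, and with slide means taken out 0.80 and 0.73 over 6 mice each. Those 6 mice lay on 3 slides, where no exact p within slides could be under 0.25. Both probes were high on slide 4 of the eye, where the slide mean of the internal Per2 probe was -1.62 against -2.45 at its lowest. None of these passed the adjusted threshold. The 3′ and internal Per2 probes correlated below 0 across the mice of each group, with no test passed (r = -0.52 in WT eye, -0.70 in knockout eye, -0.27 in WT and -0.03 in knockout hypothalamus; exact permutation p = 0.25, 0.075, 0.51 and 0.94). With slide means taken out the sign turned in 3 of the 4 groups, to 0.28 in WT eye, 0.74 in WT hypothalamus and 0.45 in knockout hypothalamus, and was -0.76 in knockout eye.

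Genes of most similar pattern were ranked over 17030 others, each by 1 probe well above background on all arrays, by the lower of its 2 correlations with the Period gene after genotype and slide were fitted (14 eye and 16 hypothalamic arrays). For Per1 these were Wiz, Nup98, Os9, Cabin1 and Akr1b3, with r of at least 0.64 in both tissues. For Per2 they were Haus6 (0.92 in eye, 0.82 in hypothalamus), Snai2, Armc8, Tmem168 and Tmem38b, with r of at least 0.69. For Per3 they were Neurog3, Ppp1r35, Gm3559 and 2 transcripts without a gene symbol, with r of at least 0.68. These are the highest of many correlations over arrays that share slides and scaling, and are given as a description. Per2 entered this ranking by its 3′ probe only, and the internal Per2 probe was not ranked. With that probe the other Period genes did not stand near the top: Per2 was ranked 3245 and Per3 4799 for Per1. Closest among the clock and input genes were Sin3a, a partner of the PER complex, for Per1 (rank 76, r = 0.47 in each tissue), Fkbp5, induced by glucocorticoids, for Per2 (rank 38, 0.61 and 0.59) and Egr2, induced by light and activity, for Per3 (rank 662, 0.36 and 0.55).

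The other genes of the clock, its repressors' partners and the inputs to the Period promoters were measured by 90 probes of 50 genes. None passed limma between the genotypes in either tissue (lowest adjusted p = 1.0 in the eye and 0.99 in the hypothalamus). An unadjusted p under 0.05 was found for 3 probes of the eye, 2 of them higher in knockouts and 1 lower, and for 2 probes of the hypothalamus, both lower. These are 3.33% and 2.22% of the list against 1.8% and 2.82% of all probes. Over the list the median difference was -0.04 log2 (eye) and -0.01 (hypothalamus), against 0.005 and -0.01 over all probes.

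By role, the activators (Clock, Npas2 and the Bmal genes, 8 probes) had 0 probes at an unadjusted p under 0.05 in either tissue, with median differences of 0.06 log2 (eye) and -0.02 (hypothalamus). The cryptochromes, which partner PER proteins in the repressor complex, had 0 of 4 probes in each tissue, and the lowest p was that of Cry2 in the hypothalamus, at -0.15 log2 (limma, adjusted p = 0.99). The kinases and ligases that set PER stability had 0 of 19 and the complex partners 0 of 12 in each tissue. Among the partners the lowest p in the eye was that of Wdr5 (0.14 log2; limma, adjusted p = 1).

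The PAR-bZIP factors and their antagonist Nfil3, which compete for D-boxes, held all 3 eye probes at an unadjusted p under 0.05. D-box letters were found above before both the Per3 start and the first Per1 start. Any part of these factors in the Per3 difference was not tested. Dbp, a D-box activator, lay between 4.599 and 5.28 log2 in WT eye and between 4.33 and 4.81 in knockout eye. Its difference was -0.34 log2 (standard error 0.12; limma, adjusted p = 1). In the hypothalamus it lay between 4.58 and 5.23 in WT and between 4.35 and 4.83 in knockout mice, a difference of -0.25 (standard error 0.10; limma, adjusted p = 0.99). The groups overlapped in both tissues.

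Nfil3, the D-box repressor, had differences of 0.30 and 0.23 log2 in the eye with its 2 probes (limma, adjusted p = 1 for both). The first lay between -0.50 and 0.06 in WT and between -0.05 and 0.32 in knockout eye, and the second between 0.93 and 1.34 and between 1.06 and 1.63. The groups overlapped with both probes.

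The REV-ERB and ROR receptors, which act on RORE elements, had 0 of 11 probes in the eye and 1 of 11 in the hypothalamus. That probe was of Nr1d1 (REV-ERBα), at -0.13 log2 (standard error 0.06; limma, adjusted p = 0.99), and another Nr1d1 probe was at -0.17 (limma, adjusted p = 0.99). Nr1d2 in the eye was at -0.20 (limma, adjusted p = 1) and Rorb in the hypothalamus at -0.09 (limma, adjusted p = 0.99). The bHLH and CHRONO repressors had 0 of 4 probes in each tissue.

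Among the inputs that act on the Per1 and Per2 promoters, 0 probes had an unadjusted p under 0.05 in either tissue. Genes induced by light and cAMP (12 probes of 10 genes) had a median of 0.14 log2 in the hypothalamus, with 11 of 12 differences above 0 and a range of -0.03 to 0.60. Knockout mouse 7 carried much of this: without it, a comparison added after the data were seen, the median was 0.07 with 9 of 12 above 0, and the largest differences, those of the transcription factors Egr2, Nr4a1 and Egr1, went from 0.60, 0.33 and 0.32 to 0.22, 0.16 and 0.14. Their median in the eye was -0.05, with 3 of 12 above 0. Per1, whose promoters above hold the CRE core, was at 0.01 in the hypothalamus. Genes induced by glucocorticoids (12 probes of 7 measured genes) had medians of -0.05 in the eye and -0.003 in the hypothalamus. Leaving out 1 mouse at a time turned the sign of some of these small medians, with ranges of -0.06 to 0.04 for the glucocorticoid list and -0.06 to 0.01 for the activators in the hypothalamus, and of -0.08 to 0.02 for the light and cAMP list in the eye.

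**Figure D5:**
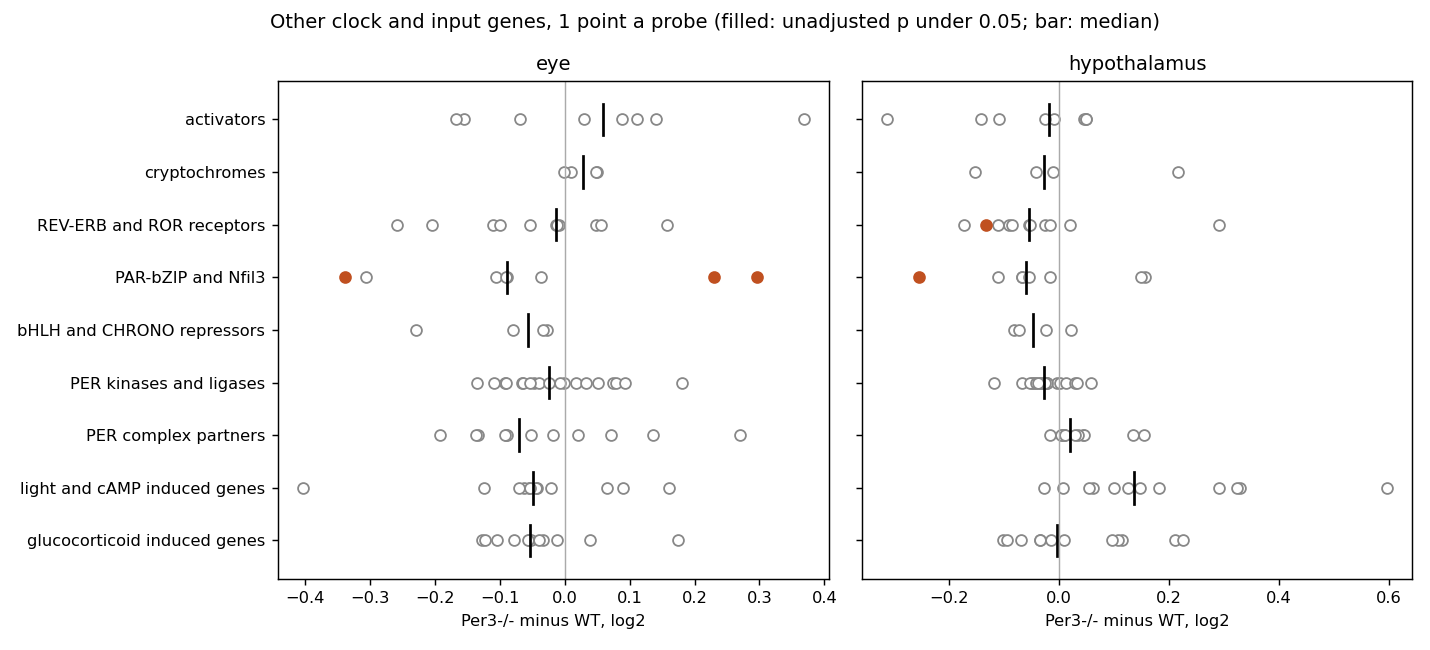
Per3-/- minus WT in log2 (horizontal axis) for 90 probes of other clock and input genes by list (vertical axis), in eye and hypothalamus; filled points have an unadjusted p under 0.05 and bars are list medians. The 3 filled points of the eye are Dbp and both Nfil3 probes, and those of the hypothalamus are Dbp and Nr1d1.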

How the data were processed

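The authors extracted spot intensities with Agilent Feature Extraction 10.7.1.1, and deposited the processed intensity, a linear value from which background was subtracted but which was not normalized across arrays. The deposited log2 values are the same signals over the array's 75th percentile, centred on each probe's median over the tissue's arrays (r of at least 0.9999 with values rebuilt that way), and were an alternative. The marks for uneven spots, outliers and spots well above background come with those files.

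Marked spots were left out (36 to 91 an array), spots of a probe averaged, and log2 of the array's 75th percentile over 41174 probes subtracted. WT and knockout were compared separately per tissue in limma 3.58.1 (R 4.3.3). Tissues were compared in 1 model of 30 arrays in which mouse was a random effect (correlation 0.059). P-values were adjusted by Benjamini-Hochberg over all 41174 probes. Single probes were tested by two-sided exact permutation over 3432 (eye) and 12870 (hypothalamus) arrangements, over 432 and 1296 within slides, and by sign flips over 128 arrangements (Python 3.11.15, numpy 2.4.6, scipy 1.17.1). Intervals are 95%. Normexp used an offset of 50, on spot medians for the eye and spot means for the hypothalamus. The hypothalamus genotype fit and the comparison of genotype effects between tissues were tested on simulated data without slide or mouse effects. P-values measure the spread between arrays, 1 for each mouse and tissue, and the number of arrays limits precision. In fits without a slide term that spread includes the spread between slides. No 2 arrays held identical values.

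Alternatives were quantile normalization, scaling to the array median, normexp, marked spots kept, only probes well above background, slide or replicate number as a block, the deposited log2 values, the methods' t-test with the same adjustment, no random effect of mouse, and leaving out each mouse; normexp with slide and the internal Per2 probe in the correlations, and list medians without each mouse, were added after the data were seen.

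Named were all Period probes, list genes past the threshold, the 5 list probes of lowest p in each tissue and the 5 genes of most similar pattern. The members and lists were chosen with earlier results of these data known. Files give positions on mm9, and promoters are RefSeq's on GRCm38.p6.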

Additional observations from a re-analysis of the deposited data

Results flagged for a closer look

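Of 52 groups examined (4 Period probes and 9 probes of named clock genes in 4 groups each), 4 held a mouse far from the rest of its group, and chance gives about 1 in 20. The Per3 probe of WT mouse 7 in the hypothalamus was at -3.79 log2, against -3.49 in the next WT mouse, and this is the only WT mouse below the highest knockout mouse there. In the eye the same mouse had the highest Per3 value of all 14, at -2.57. The Nfil3 probe A_51_P111492 was at 0.16 in the hypothalamus of WT mouse 8, against -0.13 in the next. The Wdr5 probe A_52_P7154 was at -2.17 in the eye of WT mouse 8, against -2.36 in the next. The Rorb probe A_52_P662179 was at -0.073 in the hypothalamus of knockout mouse 7, against 0.15 in the next.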

How the results depend on the processing

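The lower Per3 signal of knockout mice kept its direction under every alternative in both tissues. A slide block could not have changed it, since each slide held equal numbers of both genotypes. In the hypothalamus it passed the threshold with quantile normalization (-0.52), the array median (-0.52) and only probes well above background (-0.51), which gave 1 called Period probe each, and leaving out 1 mouse gave -0.57 to -0.48 with 0 to 1 called. In the eye the exact p fell to 0.0093 within slides. Differences near 0 turned sign: the internal Per2 probe in the hypothalamus (-0.0019 with quantile normalization, -0.0059 with the median, -0.081 with normexp, with and without slide) and Per1 there (-0.0031 with normexp, with and without slide). Leaving out 1 mouse gave -0.048 to 0.15 for the internal Per2 probe in the eye, and in the hypothalamus -0.039 to 0.023 for the 3′ Per2 probe, -0.031 to 0.053 for the internal Per2 probe and -0.014 to 0.037 for Per1. The cause was not tested.

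The tissue difference of Per3 turned in WT (-0.12 quantile, -0.092 median) and in knockout mice (-0.11 and -0.021), where the median scaling moved all probes alike and left Per3 at 0.18 and 0.17 relative to them. Leaving out 1 mouse gave 0.19 to 0.41 and 0.26 to 0.47, and it moved the call without WT mouse 3 or knockout mouse 6, 7 or 8. That of the 3′ Per2 probe in knockout mice fell below the threshold with the median (0.12), at an unchanged 0.31 relative to all probes. That of Per1 in knockout mice, relative to all probes, went from 0.58 to 0.06 with normexp. The difference between tissues in genotype effect ran from -0.078 to 0.20 for Per3 and -0.068 to 0.15 for the internal Per2 probe without 1 mouse. The correlation of Per2 and Per3 in knockout eye turned to 0.025 with normexp and 0.14 without 2 mice, that in WT hypothalamus to -0.37 without 2 mice while it was 0.83 with normexp (exact permutation p = 0.013, adjusted p = 0.24) and 0.68 with quantile normalization (exact permutation p = 0.052), and that of Per3 between tissues in WT to 0.37 without 2 mice.

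Probes called between genotypes fell from 8 in the eye to 4 with the median, 4 with normexp, 2 with normexp and slide and 1 with the replicate block, and from 17 in the hypothalamus to 10 with normexp, 9 with normexp and slide and 5 with the replicate block. Replicate numbers were not taken to pair a WT with a knockout mouse, although same-numbered mice shared a slide. Deviations of same-numbered mice of the 2 genotypes correlated at 0.002 to 0.68 in the eye and -0.20 to 0.40 in the hypothalamus. With the replicate block Per3 was at -0.42 (adjusted p = 1.0) in the eye and -0.51 (adjusted p = 0.95) in the hypothalamus. The replicate block changed no call of a Period probe, and no alternative gave a called probe of the clock list. The spots were dim for Per3 and the internal Per2 probe, and tissue and slide cannot be told apart.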
